A study of Homo sapiens with 9 samples.

Results

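Ribosome production begins in the nucleolus, and 38 genes whose products work there were followed across SW480 cells with and without restored APC. SW480 is an epithelial line from a human colorectal cancer in which the APC tumour suppressor is defective. The genes were taken by name from a fixed list, with the transcript of the highest total count for each, and are 38 of the 20878 genes in the count table. The list and its roles were chosen with earlier results of these data known. Counts of members beside those of all genes are thus not independent of that choice. Polyadenylated RNA was sequenced from 9 libraries. The APC libraries (n = 3) came from SW480 cells carrying the pEF vector with myc-tagged APC, the CONTROL libraries (n = 3) from SW480 cells carrying empty pEF, and the SW480 libraries (n = 3) from the parental line. RNA was taken 72 h after plating in every case. The APC and CONTROL lines grew in G418 and the parental line did not, and APC cells were plated more sparsely than the others, so that plating density and line cannot be told apart. Each line was plated 3 times in parallel, so the p-values measure the spread between plates and not between independently derived lines.

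In the nucleolus, RNA polymerase I transcribes a long precursor that holds most of the ribosomal RNAs. Small nucleolar ribonucleoproteins (snoRNPs) guide its chemical modification and part of its cleavage, and separate sets of assembly factors build the small and the large subunit around it. The transcription factor MYC is a known activator of many of these genes, and MYC is itself a target of the Wnt pathway that APC restrains in the intestinal epithelium. By role, 5 of the genes belong to RNA polymerase I transcription, 8 to the snoRNPs, 10 to the small-subunit pathway, 9 to the large-subunit pathway, and 6 are abundant nucleolar proteins and regulators.

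MYC binds the E-box CACGTG, so the promoters were searched for it. RefSeq (GRCh38.p14) promoter windows, from 250 bases before to 50 bases after the annotated start, were at hand for 33 of the 38 genes. Those of NOP58, NOLC1, RRP12, BOP1 and RRP1B were not analysed here. The palindromic E-box, which reads alike on both strands, was present in 12 of the 33 windows (36.4%), against 2030 of all 27305 promoters in the table (7.43%) and 1016 of 10118 promoters of genes tested here (10.0%). The ETS-type motif CCGGAAG, on either strand, was in 11 of 33 (33.3%), against 10.7% of all promoters and 18.4% of those of tested genes. Neither motif overlaps the other in its letters. Of these windows, 6 are shown on their own strand, 5′ to 3′, with the E-box in capitals: 3 with an E-box just downstream of the start (FBL, NOP2, WDR43), 1 with an E-box just upstream of it (UTP20), 1 with a pair of E-boxes (NOP10), and NOP56, which moved strongly and has no E-box in the window.
FBL, chr19:39846330-39846629 (- strand): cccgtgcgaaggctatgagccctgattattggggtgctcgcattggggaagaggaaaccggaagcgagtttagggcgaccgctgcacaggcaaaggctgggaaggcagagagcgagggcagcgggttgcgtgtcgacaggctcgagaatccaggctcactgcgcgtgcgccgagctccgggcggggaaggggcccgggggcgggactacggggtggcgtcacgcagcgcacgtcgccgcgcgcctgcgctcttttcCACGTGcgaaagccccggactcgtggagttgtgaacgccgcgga
NOP2, chr12:6568242-6568541 (- strand): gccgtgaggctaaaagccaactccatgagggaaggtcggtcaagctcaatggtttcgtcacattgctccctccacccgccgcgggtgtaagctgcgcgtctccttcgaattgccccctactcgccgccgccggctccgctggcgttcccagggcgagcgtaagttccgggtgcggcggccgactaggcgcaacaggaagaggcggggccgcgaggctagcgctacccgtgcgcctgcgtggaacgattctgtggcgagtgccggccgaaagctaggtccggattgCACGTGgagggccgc
WDR43, chr2:28894417-28894716 (+ strand): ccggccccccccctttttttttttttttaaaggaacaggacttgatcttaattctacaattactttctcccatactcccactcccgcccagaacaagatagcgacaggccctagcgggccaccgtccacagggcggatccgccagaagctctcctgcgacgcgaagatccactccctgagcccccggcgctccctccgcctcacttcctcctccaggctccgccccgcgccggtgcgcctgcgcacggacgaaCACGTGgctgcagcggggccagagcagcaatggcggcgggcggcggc
UTP20, chr12:101279855-101280154 (+ strand): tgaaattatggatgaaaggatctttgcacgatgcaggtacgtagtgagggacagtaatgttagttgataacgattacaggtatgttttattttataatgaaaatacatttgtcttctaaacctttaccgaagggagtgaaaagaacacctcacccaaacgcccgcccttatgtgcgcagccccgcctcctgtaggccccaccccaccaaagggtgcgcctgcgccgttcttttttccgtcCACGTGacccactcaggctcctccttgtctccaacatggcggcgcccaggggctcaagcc
NOP10, chr15:34343087-34343386 (- strand): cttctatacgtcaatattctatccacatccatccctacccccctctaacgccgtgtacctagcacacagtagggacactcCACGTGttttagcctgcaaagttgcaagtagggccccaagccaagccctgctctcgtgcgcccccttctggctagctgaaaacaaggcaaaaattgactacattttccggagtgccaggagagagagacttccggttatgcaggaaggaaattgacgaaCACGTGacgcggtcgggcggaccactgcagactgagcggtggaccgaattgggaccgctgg
NOP56, chr20:2652382-2652681 (+ strand): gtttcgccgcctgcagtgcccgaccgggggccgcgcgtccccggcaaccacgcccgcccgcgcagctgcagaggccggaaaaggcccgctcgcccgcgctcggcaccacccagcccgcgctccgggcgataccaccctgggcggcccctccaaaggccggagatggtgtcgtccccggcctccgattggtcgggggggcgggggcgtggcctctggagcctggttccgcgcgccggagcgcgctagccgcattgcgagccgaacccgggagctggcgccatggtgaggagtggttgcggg
The first base of the E-box lay at position 7 after the start in FBL, 36 in NOP2 and 4 in WDR43, at -10 in UTP20, and at -170 and -11 in NOP10. UTP18 also held a pair, at -89 and 5. Of the 14 E-boxes in the members, 11 began within 40 bases before the start or in the 50 bases after it (78.6%), against 651 of 2255 E-boxes in all promoters (28.9%). That stretch makes up 30% of the window and was chosen after the positions had been seen. The positions were not counted for the promoters of tested genes alone. A match is a match of letters and does not show that a factor binds there.

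The restored gene itself separated the lines. APC transcripts averaged 145 ± 5.0 CPM (counts scaled by TMM-adjusted library size) in APC libraries, 47.9 ± 1.59 in CONTROL and 49.3 ± 2.46 in SW480 (SD, n = 3 each). The log2 fold change was 1.60 ± 0.05 (SE) for APC over CONTROL (edgeR adjusted p = 2.6e-25) and -0.04 ± 0.05 for CONTROL over SW480 (edgeR adjusted p = 0.56). Libraries held 16456738 to 19358025 counts over genes. Of the epithelial markers, KRT8, KRT18, KRT19, EPCAM, CDX2 and VIL1 were all in the count table, and their summed level was 6068 to 6245 CPM in APC, 6013 to 6313 in CONTROL and 5393 to 6035 in SW480. KRT8 and KRT18 make up most of that sum, and single markers went both ways. In APC against CONTROL, EPCAM, KRT19 and VIL1 rose (log2 3.17 ± 0.04, 0.80 ± 0.06 and 3.42 ± 0.25), CDX2 and KRT18 fell by 0.73 ± 0.08 and 0.37 ± 0.04, and KRT8 was not called (0.04 ± 0.04). In CONTROL against SW480, KRT19 fell by 1.08 ± 0.06 and EPCAM by 0.22 ± 0.05, KRT8 and KRT18 rose by 0.16 ± 0.04 and 0.28 ± 0.04, and CDX2 and VIL1 were not called. Of the markers of other cell types, 5 of 6 for leukocytes, 4 of 6 for fibroblasts and 4 of 4 for endothelium were measured, and PTPRC, COL3A1 and DCN were not analysed here. Leukocyte markers summed to 7.53 to 8.10 CPM in APC, 5.30 to 6.39 in CONTROL and 5.57 to 6.23 in SW480. In the same order of lines, fibroblast markers summed to 11.7 to 13, 12.8 to 15.8 and 16.4 to 18.3, and endothelial markers to 1.15 to 1.52, 1.04 to 1.29 and 0.698 to 0.750 CPM. COL1A1 makes up most of the fibroblast sum, and single markers differed here too. In APC against CONTROL, PDGFRB fell (log2 -5.26 ± 0.37, 0.0766 CPM in APC and 3.17 in CONTROL). CD14 and CD68 rose (1.13 ± 0.28 and 0.33 ± 0.13), and COL1A1, LYZ and VWF were not called. In APC against SW480, PDGFRB and LYZ fell (-5.56 ± 0.35 and -1.64 ± 0.42), CD68 rose (0.83 ± 0.14), and CD14, COL1A1 and VWF were not called. The part of these markers in the results was not tested. Fewer cells expressing a gene and less RNA per cell cannot be told apart in these bulk libraries.

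As a group, the nucleolar genes were highest in APC libraries, lower in CONTROL and lowest in SW480. Their summed level was 10253, 10705 and 10494 CPM in the 3 APC libraries, 9065, 9527 and 9313 CPM in CONTROL, and 7516, 7650 and 8365 CPM in SW480. The 3 lines did not overlap in this sum. The genes made up 1.01 to 1.05% of counts in APC, 0.905 to 0.942% in CONTROL and 0.764 to 0.842% in SW480. NPM1 and NCL, both abundant, weigh most in that sum. Without them it was 6019 to 6153 CPM in APC, 4787 to 5046 in CONTROL and 4250 to 4594 in SW480, again without overlap. Gene by gene, the means followed the order APC, CONTROL, SW480 in 24 of 38 genes. The order CONTROL, APC, SW480 held in 7 and APC, SW480, CONTROL in 3. The remaining 4 genes had their lowest mean in APC: CONTROL led in 2 and SW480 led in 2. How often each order of means holds over all genes was not counted. The APC libraries lay wholly above the other 6 in 23 of the 38 genes, against 28.3% of all genes tested. They lay wholly below in 2, against 28.7%.

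Per length, the members spanned a wide range of levels. NPM1, a histone chaperone and shuttling nucleolar protein, was highest at 1654 RPKM in APC, 1774 in CONTROL and 1408 in SW480. UTP15, a subunit of the complex that first joins the nascent precursor on the small-subunit side, was lowest at 7.15, 7.70 and 6.95 RPKM in APC, CONTROL and SW480. The median member stood at 47.2 RPKM in APC, 43.3 in CONTROL and 36.8 in SW480. Spread between plates was small: the median coefficient of variation was 3.15% in APC, 2.70% in CONTROL and 5.53% in SW480. Plates of a line shifted many members together. SW480 replicate 3 was the highest of its group in 35 of 38 genes, and CONTROL replicate 2 was the highest of its group in 29. The same was not counted over all genes, so a shift of these genes is not separated from one of the whole library. The genes are not independent observations of a line.

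**Figure D1:**
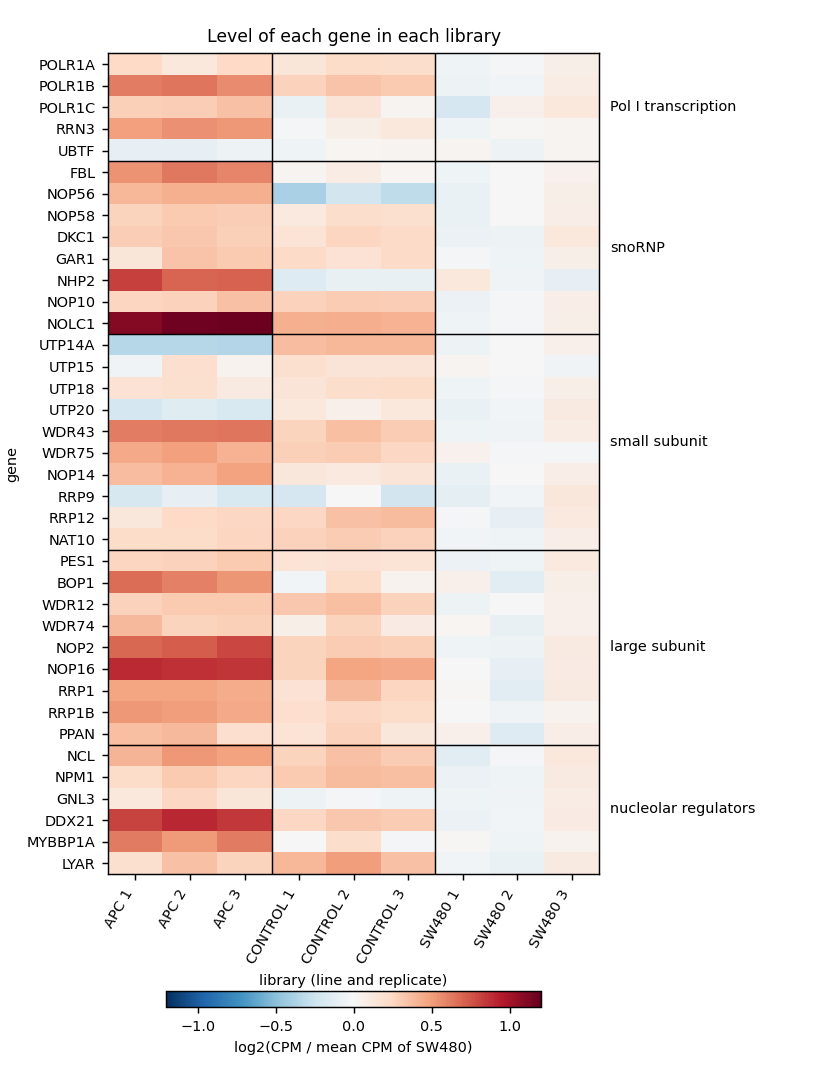
Level of each of the 38 genes in each of the 9 libraries, as log2 of CPM over the mean CPM of SW480, with genes in rows by role and libraries in columns (APC, CONTROL, SW480). Most rows are darkest red in APC; UTP14A and UTP20 are blue in APC and red in CONTROL, and NOP56 is blue in CONTROL.

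The first comparison set APC against its vector control. All 38 genes passed the filter on low counts and were tested among 14255 genes. In APC 22 of the 38 rose, against 34.8% of all genes tested, 4 fell, against 35.4%, and 12 did not pass an adjusted p of 0.05. The count that fell was 2 without APC replicate 1 or without CONTROL replicate 2. The median log2 fold change was 0.17 over the members, with a range of -0.73 to 0.85, and -0.01 over all genes tested. Most changes were small: 3 members rose more than 1.5-fold (14.8% of all genes did) and 1 fell by more than that (15.8%). The APC libraries lay wholly above the CONTROL libraries in 23 members (36.3% of all genes) and wholly below in 7 (37.1%). The comparison called 70.2% of all genes in one direction or the other.

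The second comparison set APC against the parental line. In APC 33 of 38 rose, against 35.6% of all genes, 3 fell, against 36.9%, and 2 were not called (UBTF and UTP15). The median log2 fold change was 0.31 (range -0.34 to 1.15), against -0.01 over all genes. Here 10 members rose more than 1.5-fold (14.0% of all genes) and 0 fell by as much (18.1%). No overlap, with APC above SW480, was seen in 33 members (35.9% of all genes), and with APC below in 2 (37.2%). The 3 that fell were UTP14A, UTP20 and RRP9, all of the small-subunit pathway.

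The third comparison set the vector line against the parental line, and so shows what differed without restored APC. In CONTROL 28 of 38 rose, against 25.3% of all genes, 1 fell (NOP56), against 24.7%, and 9 were not called. The count that fell was 2 without APC replicate 1, CONTROL replicate 2, SW480 replicate 1 or SW480 replicate 3. The median log2 fold change was 0.20 (range -0.30 to 0.43), against -0.01 over all genes. None of the members passed 1.5-fold in either direction, where 4.01% of all genes rose and 7.57% fell by that much. CONTROL libraries were wholly above SW480 in 27 members (28.5% of all genes) and wholly below in 1 (28.2%). Of the 28 that rose, UTP15, UTP20, NOP14, WDR74 and PPAN were not called in at least 1 fit that left out a library, nor with limma on RPKM (adjusted p of 0.054 to 0.21). UTP15, UTP20 and PPAN were not called by DESeq2 either (0.074, 0.092 and 0.11). The rise of the members over the parental line was thus present in the vector line too. Within the fit, the log2 fold change of APC over SW480 is by construction that of APC over CONTROL plus that of CONTROL over SW480. It does not show that the APC line went through the change seen in the vector line. The 3 comparisons share libraries, so their values are given side by side and are not independent of each other.

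**Figure D2:**
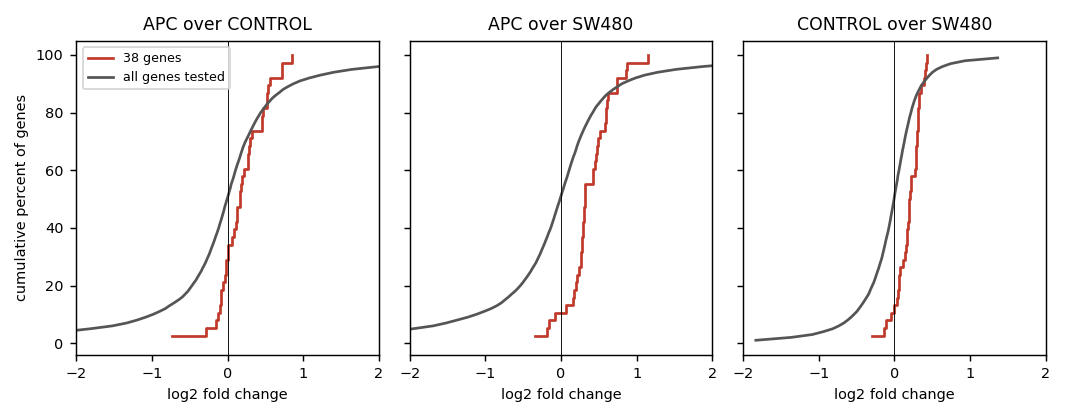
Cumulative percent of genes (y axis) by log2 fold change (x axis) for the 38 genes (red steps) and for all 14255 genes tested (grey, drawn at percentiles), in the 3 comparisons. The red steps lie right of the grey line over its middle part in each panel, with medians of 0.17, 0.31 and 0.20, and the grey line reaches further out on both sides.

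**Figure D3:**
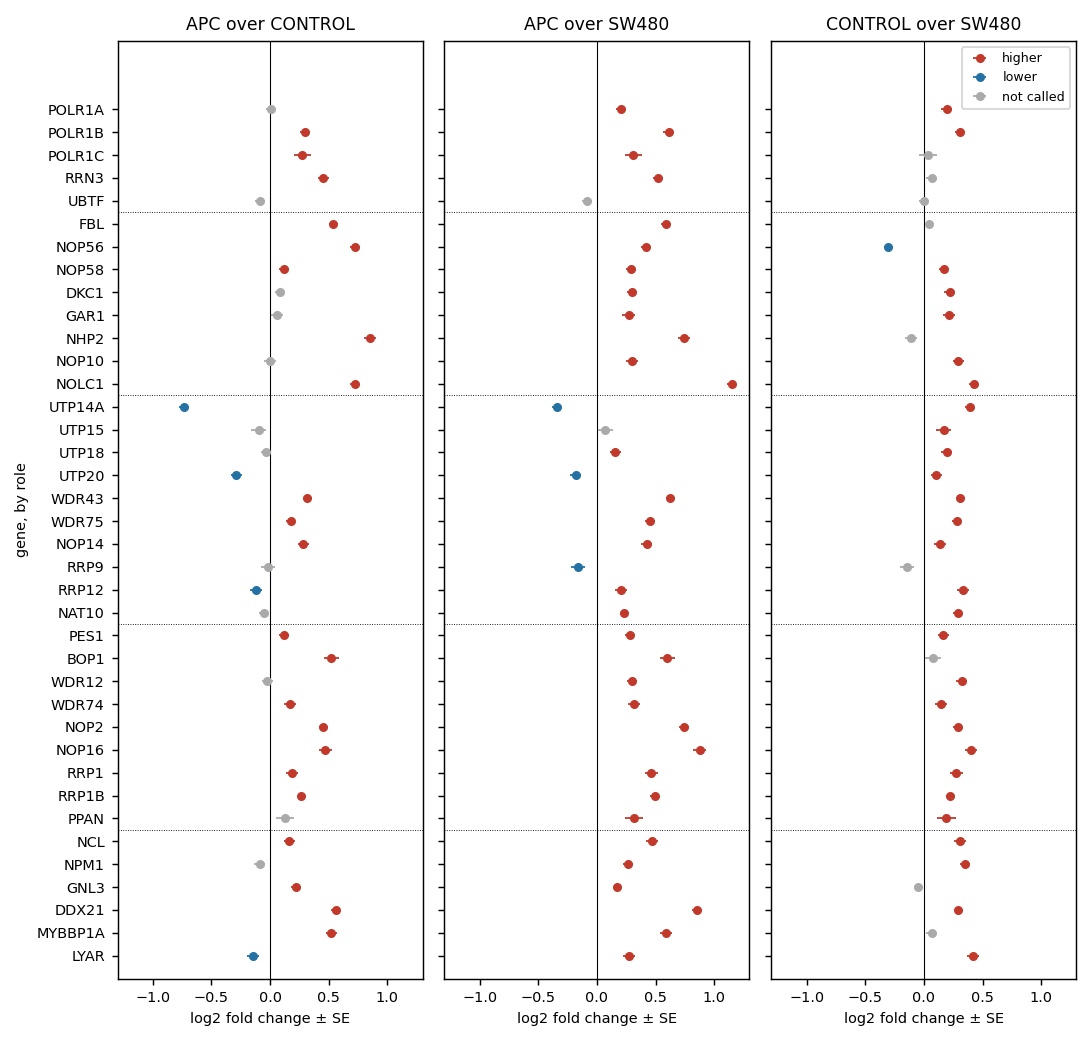
Log2 fold change ± SE of each gene (rows, by role) for APC over CONTROL, APC over SW480 and CONTROL over SW480. Red points rose and blue points fell at an adjusted p of 0.05, and grey points were not called.

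Among the polymerase I genes, 3 of 5 rose in APC against CONTROL, 4 rose against SW480, and none fell. The shares of all genes tested were 34.8% higher and 35.4% lower against CONTROL, and 35.6% and 36.9% against SW480. In CONTROL against SW480, 2 of the 5 rose and none fell, against 25.3% and 24.7% of all genes. RRN3, the initiation factor that brings the polymerase to the rDNA promoter, moved most against CONTROL. It had 100, 104 and 102 CPM in APC libraries, 70.7, 75.1 and 78.1 in CONTROL, and 68.9, 71.9 and 73.2 in SW480. All APC libraries were above the others, while CONTROL and SW480 overlapped. The log2 fold change was 0.45 ± 0.04 for APC over CONTROL (edgeR adjusted p = 6.9e-11) and 0.07 ± 0.05 for CONTROL over SW480 (edgeR adjusted p = 0.25). POLR1B, the second largest subunit of the enzyme, rose against both lines. It had 127 ± 3.36 CPM in APC, 103 ± 2.41 in CONTROL and 83.2 ± 4.48 in SW480 (SD, n = 3 each), with log2 fold changes of 0.30 ± 0.04 over CONTROL and 0.61 ± 0.04 over SW480. POLR1A, the largest and catalytic subunit, had 106 ± 4.55 CPM in APC, 106 ± 2.87 in CONTROL and 92.4 ± 4.30 in SW480, so that it rose against SW480 but not against CONTROL. POLR1C, which polymerases I and III share, rose by 0.28 ± 0.07 on the log2 scale over CONTROL (edgeR adjusted p = 0.0013). UBTF, the architectural factor that marks active rDNA, was called in no comparison of the main fit. Without CONTROL replicate 1 its edgeR adjusted p was 0.042 for APC over CONTROL, and without SW480 replicate 2 it was 0.027 for APC over SW480. With limma on RPKM, UBTF was called lower in APC than in SW480 (log2 -0.111, -0.116 and -0.110, limma adjusted p 0.024 to 0.027). It had 107 ± 1.63 CPM in APC, 114 ± 3.73 in CONTROL and 114 ± 4.05 in SW480.

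The 3 members that rose more than 1.5-fold over CONTROL (NHP2, NOP56 and NOLC1) are snoRNP genes. All 8 rose in APC against SW480, 5 rose against CONTROL, and none fell in either. Over all genes, 35.6% rose and 36.9% fell against SW480, and 34.8% and 35.4% against CONTROL. In CONTROL against SW480, 5 of the 8 rose and 1 fell, against 25.3% and 24.7% of all genes. The top member against SW480 was NOLC1, a chaperone of both snoRNP classes in nucleoli and Cajal bodies. NOLC1 had 604, 630 and 637 CPM in APC libraries, 378, 380 and 376 in CONTROL, and 271, 278 and 295 in SW480. The 3 lines formed 3 separate levels. NOLC1 rose 1.65-fold in APC over CONTROL (log2 0.72 ± 0.04, edgeR adjusted p = 3.5e-18), 2.22-fold over SW480 (log2 1.15 ± 0.04, edgeR adjusted p = 8.9e-24) and by log2 0.43 ± 0.04 in CONTROL over SW480. The 20 tested genes nearest to NOLC1 on its chromosome had a median log2 fold change of 0.65 for APC over CONTROL, 0.67 for APC over SW480 and -0.02 for CONTROL over SW480. NOLC1 thus moved by little more than its neighbours against CONTROL, and their part in its change was not tested.

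The box C/D snoRNPs, which methylate ribose, are built on FBL, NOP56 and NOP58 together with a small RNA-binding protein. FBL, the methyltransferase, had 464, 496 and 478 CPM in APC, 326, 339 and 325 in CONTROL, and 308, 320 and 330 in SW480. APC stood apart and the other lines overlapped, with log2 0.54 ± 0.04 over CONTROL (edgeR adjusted p = 1.2e-14), 0.59 ± 0.04 over SW480, and 0.05 ± 0.04 for CONTROL over SW480. NOP56, one of the paired scaffold proteins, had 461, 472 and 472 CPM in APC, 268, 301 and 284 in CONTROL, and 331, 352 and 367 in SW480. It was the single member that fell in CONTROL against SW480 (log2 -0.30 ± 0.04, edgeR adjusted p = 3e-07), and it rose in APC against both lines (0.72 ± 0.04 and 0.42 ± 0.04). Genes beside NOP56 moved the same way for APC over CONTROL (median of the 20 nearest 0.40) and for CONTROL over SW480 (-0.42). For APC over SW480 their median was only 0.04, against 0.42 for NOP56. NOP58, its partner, changed less, with 197 ± 3.50 CPM in APC, 181 ± 6.22 in CONTROL and 161 ± 9.35 in SW480. Its rise over CONTROL (log2 0.12 ± 0.04, edgeR adjusted p = 0.0097) was not called without CONTROL replicate 1 (edgeR adjusted p = 0.08), whereas that over SW480 was 0.29 ± 0.04.

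The box H/ACA snoRNPs, which convert uridine to pseudouridine, consist of DKC1, NHP2, GAR1 and NOP10, and in APC cells these 4 did not move alike. NHP2 had 197, 181 and 182 CPM in APC, 100, 105 and 105 in CONTROL, and 122, 108 and 105 in SW480. It had the largest fold change of all members against CONTROL, 1.81-fold (log2 0.85 ± 0.05, edgeR adjusted p = 4.2e-15), and rose 1.67-fold over SW480, while its neighbours had medians of -0.07 and -0.13. DKC1, the catalytic subunit, had 370 ± 5.10 CPM in APC, 349 ± 11.7 in CONTROL and 300 ± 23.6 in SW480. Against CONTROL it was not called (log2 0.08 ± 0.04, edgeR adjusted p = 0.081), though it was in a fit of the 6 libraries of both lines (0.019), with no filter on low counts (0.049) and without SW480 replicate 1 or 3 (0.041 and 0.024). GAR1 and NOP10 were not called against CONTROL either, at 0.06 ± 0.05 and 0.00 ± 0.05 (GAR1 was without APC replicate 1, edgeR adjusted p = 0.043), and all 4 rose over SW480. NHP2 exons overlap a gene on the other strand, and 2 named pseudogenes of NHP2 exist. Whether counting used the strand is not given in the sources used here, so NHP2 reads may be shared. Named pseudogenes exist for 7 members in all, among them NOP56 (3) and RRN3 (2). Exons of another gene overlap those of 19 members. The reads of these members may be shared as well.

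Ratios of RPKM within a library show the same inequality without any scaling between libraries. NOP56 over NOP58 was 2.14, 2.11 and 2.14 in APC, 1.38, 1.45 and 1.38 in CONTROL, and 1.96, 1.97 and 1.93 in SW480, 3 levels without overlap. NHP2 over NOP10 was 2.10 ± 0.158 in APC, 1.16 ± 0.0199 in CONTROL and 1.54 ± 0.207 in SW480 (SD, n = 3 each), and NHP2 over GAR1 was 4.24 ± 0.521, 2.44 ± 0.106 and 3.05 ± 0.322 in the same order. In both, the lowest APC library was above the highest of the other lines. These ratios are of transcript levels and are given without a test, since the pairs were formed with the values known.

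**Figure D4:**
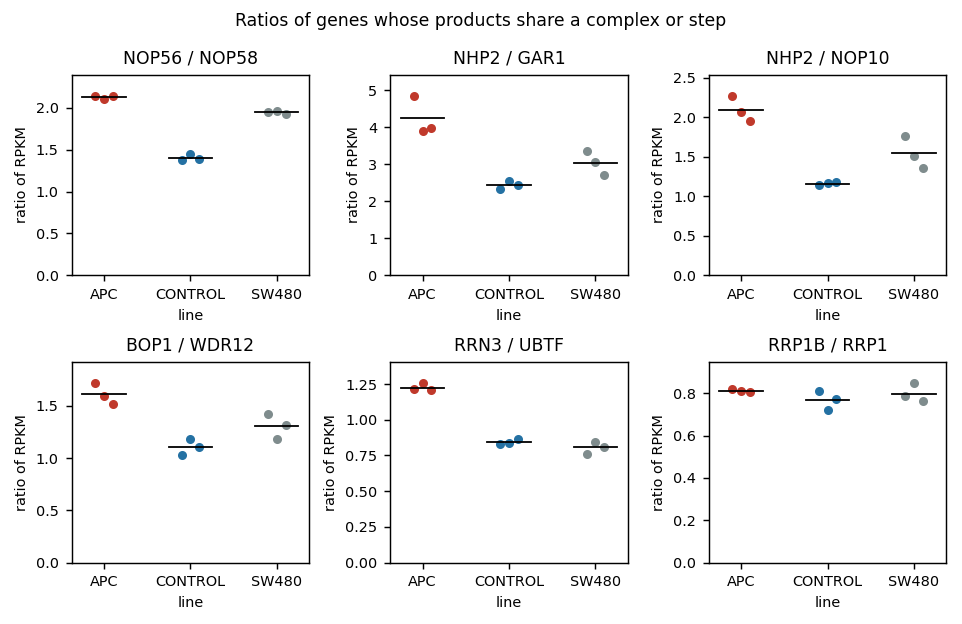
Ratio of RPKM (y axis, from 0) between genes whose products share a complex or a step, in each library of APC, CONTROL and SW480 (points) with the mean (bar). NOP56 over NOP58 averages 2.13 in APC, 1.40 in CONTROL and 1.95 in SW480, while RRP1B over RRP1 stays at 0.812, 0.769 and 0.799 with overlapping points.

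Of the 10 small-subunit genes, 3 rose in APC against CONTROL (WDR43, WDR75 and NOP14), 3 fell (UTP14A, UTP20 and RRP12) and 4 were not called, with a median log2 fold change of -0.04. Both counts, 30% of the group, lie near the shares over all genes (34.8% higher and 35.4% lower). Against SW480 6 rose and 3 fell (median 0.18), against 35.6% and 36.9% of all genes, and in CONTROL against SW480 9 rose and none fell (median 0.24), against 25.3% and 24.7% of all genes. UTP14A, a component of the late small-subunit processome, had 91.8, 91.8 and 91.5 CPM in APC, 150, 154 and 154 in CONTROL, and 112, 116 and 122 in SW480. APC was below and CONTROL above the parental line without overlap. The log2 fold changes were -0.73 ± 0.04 for APC over CONTROL (1.66-fold lower, edgeR adjusted p = 1.7e-17), -0.34 ± 0.04 for APC over SW480 and 0.39 ± 0.04 for CONTROL over SW480, while its 20 neighbours had medians of -0.19, -0.17 and 0.12. UTP20, a very large scaffold protein of the same particle, followed at -0.29 ± 0.05 over CONTROL and -0.18 ± 0.05 over SW480.

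WDR43 and WDR75 belong, with UTP15, to the complex that binds the start of the nascent precursor. WDR43 had 214, 217 and 218 CPM in APC, 168, 179 and 173 in CONTROL, and 135, 136 and 149 in SW480, and its log2 fold change was 0.32 ± 0.04 over CONTROL (edgeR adjusted p = 1.3e-08) and 0.63 ± 0.04 over SW480. WDR75 rose by 0.17 ± 0.04 and 0.45 ± 0.04. UTP15 did not pass the test in either comparison with APC (-0.10 ± 0.06 over CONTROL, 0.07 ± 0.06 over SW480), though without APC replicate 2 its edgeR adjusted p over CONTROL was 0.039. The members of this complex thus had different changes. NOP14, which helps mature the small-subunit rRNA, rose by 0.29 ± 0.05 over CONTROL and 0.42 ± 0.05 over SW480. NAT10, the acetyltransferase of that rRNA, had 156 ± 2.41 CPM in APC, 162 ± 1.96 in CONTROL and 133 ± 6.46 in SW480, and UTP18 had 88.8 ± 2.74, 91.0 ± 2.30 and 79.6 ± 3.48. Neither was called between APC and CONTROL (log2 -0.05 ± 0.04 and -0.04 ± 0.04), and both rose against SW480.

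The RRP12 and RRP9 calls lay near the threshold and were lost under several alternatives. RRP12, a factor for export and maturation of the small-subunit precursor, fell by 0.12 ± 0.05 on the log2 scale against CONTROL (edgeR adjusted p = 0.033). The call was lost on leaving out any of APC 1, 2 and 3 or CONTROL 2 and 3 (edgeR adjusted p 0.053 to 0.22), in DESeq2 (0.11), with summed transcripts (0.062) and with limma on RPKM (0.061 to 0.063). RRP9, a protein of the U3 snoRNP, fell against SW480 by 0.16 ± 0.06 (edgeR adjusted p = 0.023), which was not called without APC 1, APC 3 or SW480 3 (0.083, 0.088 and 0.21) nor with all plates in DESeq2 (0.073) or with summed transcripts (0.06). Among the 20 genes nearest RRP9 the median was -0.56 for APC over SW480 and -0.43 for CONTROL over SW480. RRP9 therefore stood above its neighbourhood in both comparisons.

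In the large-subunit pathway 7 of 9 genes rose in APC against CONTROL and all 9 against SW480, and none fell in any comparison. Of all genes tested, 34.8% rose and 35.4% fell against CONTROL, and 35.6% and 36.9% against SW480. In CONTROL against SW480, 8 of the 9 rose as well, where 25.3% of all genes rose and 24.7% fell. PES1, BOP1 and WDR12 form the PeBoW complex, which acts on the spacers beside the large-subunit rRNA. BOP1 had 137, 131 and 124 CPM in APC, 84.6, 100 and 88.9 in CONTROL, and 90.0, 78.4 and 90.6 in SW480, for a log2 fold change of 0.52 ± 0.06 over CONTROL (edgeR adjusted p = 2.6e-06) and 0.60 ± 0.06 over SW480. WDR12 had 76.9, 78.8 and 78.8 CPM in APC, 79.3, 81.8 and 77.2 in CONTROL, and 60.7, 63.6 and 66.2 in SW480. APC and CONTROL overlapped (log2 -0.02 ± 0.05, edgeR adjusted p = 0.68), and both were above SW480 (0.30 ± 0.05 and 0.32 ± 0.05). PES1 rose by 0.12 ± 0.04 over CONTROL (edgeR adjusted p = 0.017), a call that limma on RPKM did not make (0.052 to 0.054), and by 0.28 ± 0.04 over SW480. BOP1 over WDR12, as a ratio of RPKM, was 1.61 ± 0.101 in APC, 1.11 ± 0.0780 in CONTROL and 1.31 ± 0.120 in SW480.

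Against SW480, NOP16 and NOP2 had the largest log2 fold changes of the 9 genes, and against CONTROL they came after BOP1. NOP16, a factor of large-subunit precursors, had 91.9, 90.9 and 89.9 CPM in APC, 59.8, 69.0 and 67.9 in CONTROL, and 49.6, 46.2 and 53.0 in SW480. NOP2, which methylates cytosine in the large-subunit rRNA, had 256, 262 and 277 CPM in APC, 190, 196 and 193 in CONTROL, and 153, 152 and 170 in SW480. Each gene formed 3 separate levels in the order APC, CONTROL, SW480. NOP16 rose by log2 0.47 ± 0.05 over CONTROL (edgeR adjusted p = 1.1e-09) and 0.87 ± 0.05 over SW480, and NOP2 by 0.46 ± 0.04 (edgeR adjusted p = 9.4e-12) and 0.74 ± 0.04. RRP1 and its relative RRP1B, both tied to large-subunit maturation, rose together, by 0.19 ± 0.05 and 0.27 ± 0.04 over CONTROL, and by 0.46 ± 0.05 and 0.49 ± 0.04 over SW480. WDR74, a factor of the nucleolar precursor of the large subunit, rose by 0.17 ± 0.05 over CONTROL. PPAN, the homologue of a yeast large-subunit factor, was not called against CONTROL (0.13 ± 0.08, edgeR adjusted p = 0.14, or 0.041 without APC replicate 3), shares exons with a neighbouring and a readthrough gene, and rose over SW480 by 0.32 ± 0.08.

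**Figure D5:**
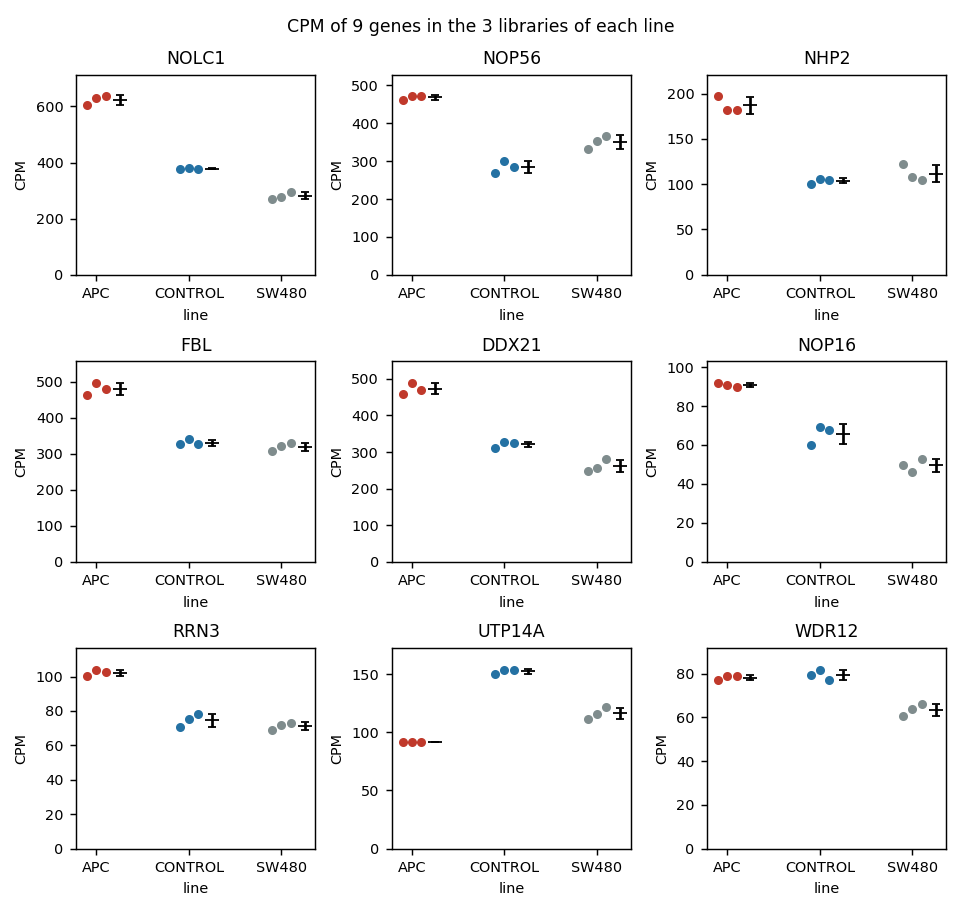
CPM (y axis, from 0) of 9 genes in the 3 libraries of APC, CONTROL and SW480 (points), with the mean ± SD beside them. In 7 of the panels the APC points lie above all others; UTP14A lies below, and WDR12 overlaps CONTROL.

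Among the 6 abundant nucleolar proteins and regulators, 4 rose in APC against CONTROL, 1 fell (LYAR), and all 6 rose against SW480. Of all genes tested, 34.8% rose and 35.4% fell against CONTROL, and 35.6% and 36.9% against SW480. In CONTROL against SW480, 4 of the 6 rose and none fell, against 25.3% and 24.7% of all genes. DDX21, an RNA helicase that couples polymerase I output with snoRNA function, had 459, 489 and 470 CPM in APC, 312, 326 and 324 in CONTROL, and 249, 257 and 280 in SW480. It formed 3 separate levels, with log2 0.56 ± 0.04 over CONTROL (edgeR adjusted p = 2.8e-14) and 0.85 ± 0.04 over SW480, where its neighbours had medians of -0.08 and -0.10. MYBBP1A, a nucleolar protein that restrains polymerase I, rose by 0.52 ± 0.05 over CONTROL and 0.59 ± 0.05 over SW480.

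NCL, which binds the precursor rRNA, had 1578, 1708 and 1669 CPM in APC, 1431, 1516 and 1470 in CONTROL, and 1092, 1178 and 1304 in SW480. NPM1 had 2656, 2844 and 2725 CPM in APC, 2846, 2966 and 2940 in CONTROL, and 2175, 2207 and 2467 in SW480. The 2 most abundant members thus differed in order, NCL being highest in APC (log2 0.17 ± 0.05 over CONTROL, edgeR adjusted p = 0.0054) and NPM1 highest in CONTROL (log2 -0.09 ± 0.04, edgeR adjusted p = 0.065). For NPM1 the fall in APC was called in a fit of the 6 libraries of both lines (edgeR adjusted p = 0.0083), with no filter on low counts (0.044) and without SW480 replicate 1 or 3 (0.036 and 0.019), and its 45 named pseudogenes may share its reads. LYAR, a growth-related nucleolar zinc-finger protein, fell by 0.15 ± 0.05 on the log2 scale against CONTROL (edgeR adjusted p = 0.011, 0.09 without APC 1 and 0.098 without CONTROL 2), while the 20 genes nearest to it had a median of -0.65. GNL3, or nucleostemin, a GTPase of proliferating cells, rose by 0.22 ± 0.04 over CONTROL and 0.17 ± 0.04 over SW480, and its neighbours had medians of -0.21 and -0.61. LYAR and GNL3 thus both stood above their neighbours.

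Each member was also set against its neighbours along the chromosome. It was above the median of its 20 nearest tested genes in 28 of 38 cases for APC over CONTROL (73.7%, against 49.9% of all genes placed), in 34 for APC over SW480 (89.5%, against 50.0%) and in 36 for CONTROL over SW480 (94.7%, against 50.0%). The median difference was 0.23, 0.37 and 0.24 on the log2 scale. Neighbourhood medians ranged from -0.65 to 0.65 for APC over CONTROL. This measure was added after the fold changes had been seen.

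The members with an E-box were then set beside those without one. Against CONTROL, 6 of the 12 genes with an E-box rose in APC and 2 fell (median log2 0.06), while of the 21 without one in the window 12 rose and 1 fell (median 0.17), and of all genes 34.8% rose and 35.4% fell. Against SW480, 9 rose and 3 fell with an E-box (median 0.29), and 19 rose and none fell without (median 0.32), where of all genes 35.6% rose and 36.9% fell. The difference between the subsets was not tested. All 3 members that fell against SW480, UTP14A, UTP20 and RRP9, have an E-box in the window, as do FBL, NOP2 and WDR43, which rose. That of UTP14A begins at -241, and the RRP9 call was lost under several alternatives. Of the 4 members that fell against CONTROL, UTP14A and UTP20 have an E-box, LYAR has none, and the window of RRP12 was not analysed. MYC itself had 281, 283 and 286 CPM in APC, 144, 154 and 144 in CONTROL, and 121, 116 and 117 in SW480. It rose in APC by log2 0.94 ± 0.04 over CONTROL (edgeR adjusted p = 1.4e-21) and 1.26 ± 0.04 over SW480, and by 0.32 ± 0.04 in CONTROL over SW480. MYC was thus in the same order as the summed level of the members, and its part in their levels was not tested.

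In the GENCODE annotation (release 29), 8 of the members (NOP56, NOP58, DKC1, WDR43, PPAN, NCL, GNL3 and POLR1C) carry snoRNA genes within them, 26 in all. Of these 8, 6 rose and none fell in APC against CONTROL (median log2 0.19), against 16 risen and 4 fallen of the other 30 (median 0.14). Against SW480 the medians were 0.315 and 0.307. The shares of all genes were 34.8% higher and 35.4% lower against CONTROL, and the difference between the subsets was not tested. The snoRNAs themselves were not analysed here.

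Other genes of the pathway were counted in the same way. Of 130 other ribosome biogenesis genes 128 were tested, and in APC 66 rose and 22 fell against CONTROL (median log2 0.12), 89 rose and 12 fell against SW480 (median 0.27), while in CONTROL against SW480 74 rose and 10 fell (median 0.16). Over all genes, 34.8% rose and 35.4% fell in the first comparison, 35.6% and 36.9% in the second, and 25.3% and 24.7% in the third. Among those that rose against CONTROL, POLR1D, a subunit shared by polymerases I and III, had 73.8 ± 3.71 CPM in APC, 38.1 ± 1.59 in CONTROL and 36.6 ± 3.82 in SW480. DDX47, a helicase of the small-subunit pathway, had 150 ± 1.38 CPM in APC, 91.2 ± 2.04 in CONTROL and 86.1 ± 5.47 in SW480. The exosome subunit EXOSC5 rose by log2 0.87 ± 0.06 over CONTROL, and NOC2L, of the nucleolar complex, by 0.74 ± 0.04, where the genes beside NOC2L had a median of 0.82. Among those that fell, MPHOSPH6, a cofactor of the nuclear exosome, had 30.0 ± 1.61 CPM in APC, 60.2 ± 4.12 in CONTROL and 39.2 ± 2.44 in SW480. RIOK3, a kinase of cytoplasmic small-subunit precursors, fell by 0.93 ± 0.05 on the log2 scale against CONTROL and its neighbours by a median of 0.66. URB1, of the large-subunit pathway, fell by 0.76 ± 0.04, and AATF, a nucleolar factor of the small-subunit pathway, fell by 0.68 ± 0.04 with a neighbourhood median of -0.53. AATF differed from SW480 in CONTROL (0.61 ± 0.04, edgeR adjusted p = 1.9e-13) and was not called between APC and SW480 (-0.07 ± 0.04, edgeR adjusted p = 0.16).

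Reads named RNA45S5, after the ribosomal RNA precursor, were 3.12, 2.82 and 2.70% of counts in APC, 2.38, 2.39 and 2.40% in CONTROL, and 3.50, 2.82 and 2.69% in SW480. The RNA was selected by its poly(A) tail, so these reads are what passed the selection and do not measure the precursor. They were higher in APC than in CONTROL (log2 0.28 ± 0.10, edgeR adjusted p = 0.027), not called against SW480 (-0.02 ± 0.10, edgeR adjusted p = 0.89), and lower in CONTROL than in SW480 (-0.29 ± 0.10, edgeR adjusted p = 0.03).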

How the data were processed

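Polyadenylated RNA of 9 libraries (3 per line) was sequenced. The deposited counts are reads per RefSeq transcript in whole numbers, not normalised by the authors, per the file headers and values. Other transcripts of a member held at least 78.3% of the count of the transcript used. Reads that overlap several transcripts of a gene thus appear to be counted in each. Where that holds, summed transcripts count such reads more than once. The authors' deposited RPKM follow from those counts: dividing each count by the transcript's listed length and by a library constant gave the RPKM for 100% of transcripts, at a relative tolerance of 0.0001. The tools were Trimmomatic, TopHat and GATK and the build hg19, per the submitters' processing notes; how reads were counted, and with which annotation, is not given in the sources used here. Every column was matched to a sample by its name. Of 65 gene names altered to dates, 62 were repaired by accession.

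One transcript per gene, that of the highest total, entered the quasi-likelihood test of edgeR 4.0.16 (R 4.3.3, with TMM, filterByExpr and robust fitting) in 1 fit of all 9 libraries. P-values were adjusted over all 14255 genes by Benjamini-Hochberg, with a threshold of 0.05. The SE is the log2 fold change divided by the square root of F. CPM are the counts over TMM-scaled library sizes. With 3 libraries on each side, an exact two-sided permutation p can be no smaller than 0.1. The plates of each line differed beyond sampling noise. As alternatives, DESeq2 1.42.0, summed transcripts, no filter, RLE size factors, limma 3.58.1 on log2(RPKM + 1) or log2(RPKM + 0.1) of transcripts and log2(RPKM + 1) of the authors' gene-level table, fits of 6 libraries, a replicate block and leaving out each library were run. The test was checked on counts simulated from the fitted means and dispersions of all genes. Over the 3 comparisons it recovered 54 to 60% of 1.25-fold changes and 78 to 82% of 1.5-fold changes. It called 6 to 22 unchanged genes. A member that was not called is therefore not shown to be unchanged.

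The members, their roles and the other lists were chosen with earlier results of these data known. All 38 members are named; of the other ribosome biogenesis genes, the 4 per direction of lowest adjusted p in APC against CONTROL and at least 10 CPM on average in whichever line was higher, and of the ribosomal protein and proliferation lists 2 per direction by the same rule. Promoters came from RefSeq GRCh38.p14. Neighbours are the 10 tested genes on each side in RefSeq gene order, fewer at chromosome ends; only the order was used, as the counts are on another build.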

Additional observations from a re-analysis of the deposited data

How the results depend on the processing

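Of 2052 values of members under the alternatives, 1945 kept their direction and their side of the threshold, 59 lost a call, 22 gained one, and 26 turned in sign, all of them values near 0 that were called neither way. For APC over CONTROL, POLR1A turned to -0.00137, -0.00148 and -0.00137 on the log2 scale with limma on transcript RPKM + 1, transcript RPKM + 0.1 and gene-level RPKM + 1. In the same 3 settings NOP10 turned to -0.0114, -0.0115 and -0.0114, and it was -0.000422 in 6 libraries. For CONTROL over SW480, UBTF turned to 0.00468 with DESeq2, 0.00221 with RLE size factors, 0.00921 with no filter and 0.000886 with summed transcripts. With each library left out in turn, the log2 fold change of APC over CONTROL ranged from -0.00979 to 0.0592 for POLR1A, -0.0166 to 0.0243 for NOP10, -0.0541 to 0.00269 for UTP18, -0.0459 to 0.0539 for RRP9 and -0.0314 to 0.000610 for WDR12. That of CONTROL over SW480 ranged from -0.0603 to 0.103 for POLR1C, -0.0303 to 0.0266 for UBTF and -0.00774 to 0.103 for MYBBP1A. The members that fell in APC against CONTROL numbered 2 to 5, with 2 left without APC replicate 1 or CONTROL replicate 2. The median over members for APC over SW480 was 0.271 with limma on transcript or gene-level RPKM + 1, and 0.297 to 0.367 with a library left out, the highest without SW480 replicate 3. For CONTROL over SW480 it was 0.184 to 0.240, and 1 to 2 members fell, the second being RRP9 or NHP2. The second was RRP9 with no filter (2 members, edgeR adjusted p = 0.026). Of the rises in CONTROL over SW480, the highest edgeR adjusted p with a library left out was 0.26 for UTP20 (without SW480 1), 0.24 for PPAN (SW480 2), 0.2 for WDR74 (CONTROL 2), 0.12 for NOP14 (SW480 1) and 0.079 for UTP15 (SW480 3). The causes were not tested. Deviations from the line means correlated at -0.0686 to 0.106 between same-numbered replicates. Between differently numbered ones they correlated at -0.0942 to 0.0678. The highest value was that of APC 1 with SW480 1. With 3 plates per line, these values cannot settle whether the numbers pair any samples. With the replicate block 2 members fell in CONTROL against SW480, since RRP9 was called (log2 -0.14, edgeR adjusted p = 0.034), and no other call of a member changed. Depth limits the members little, since PPAN, the lowest in CPM, still averaged 16.8 CPM in SW480.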

Other observations

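Genes of the finished ribosome and of the cell cycle were read from the same fit. Of 78 cytosolic ribosomal protein genes 77 were tested. In APC 35 rose and 10 fell against CONTROL (median log2 fold change 0.09), and 57 rose and 5 fell against SW480 (median 0.23). In CONTROL 50 rose and 7 fell against SW480 (median 0.15). Over all genes, 34.8% rose and 35.4% fell in APC against CONTROL, 35.6% and 36.9% in APC against SW480, and 25.3% and 24.7% in CONTROL against SW480. RPL21 had 1370 ± 40.4 CPM in APC, 818 ± 13.1 in CONTROL and 810 ± 52.2 in SW480 (SD, n = 3 each), and RPS19 had 1607 ± 11.7, 1045 ± 32.6 and 907 ± 44.7. RPL23 had 749 ± 26.4 CPM in APC, 1171 ± 21.7 in CONTROL and 772 ± 48.3 in SW480, and RPL19 had 1020 ± 49.4, 1461 ± 27.2 and 991 ± 39.6. RPL23 and RPL19 fell in APC against CONTROL by 0.65 and 0.52 on the log2 scale, and the 20 genes nearest to each fell by a median of 0.52. RPL21 and RPS19 rose by 0.74 and 0.62, and the 20 genes nearest to them had medians of 0.37 and 0.42. The part of these neighbourhoods in the change was not tested.

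Of 18 proliferation genes, 9 rose and 6 fell in APC against CONTROL (median 0.12), and 9 rose and 6 fell against SW480 (median 0.07). In CONTROL 8 rose and 5 fell against SW480 (median 0.06). The risen share was 50.0% in both comparisons with APC, against 34.8% and 35.6% of all genes. The fallen share of 33.3% in both lies near that over all genes (35.4% and 36.9%). In CONTROL against SW480 44.4% rose and 27.8% fell, against 25.3% and 24.7% of all genes. BIRC5, an inhibitor of apoptosis that acts in mitosis, rose by 0.50 ± 0.04 on the log2 scale over CONTROL and PCNA, the replication clamp, by 0.46 ± 0.04. TOP2A, a topoisomerase, fell by 0.78 ± 0.04 and TYMS, which makes thymidylate, by 0.50 ± 0.04. The genes nearest to BIRC5, PCNA, TOP2A and TYMS had medians of 0.93, 0.56, -0.80 and -0.12 in that comparison, so the first 3 moved no further than their neighbours. RMRP, the RNA of the RNase MRP enzyme that cuts precursor rRNA, had only 34, 44 and 33 counts in APC, 20, 17 and 10 in CONTROL and 28, 31 and 17 in SW480. It rose in APC by 1.27 ± 0.27 over CONTROL (edgeR adjusted p = 9.4e-05) and 0.63 ± 0.24 over SW480 (edgeR adjusted p = 0.02). As RMRP is not polyadenylated, these are the reads that passed a poly(A) selection.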
